A study of Caenorhabditis elegans with 2 samples.

Results

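Candidate binding regions of DMD-4 that lie between genes on chromosome X of Caenorhabditis elegans were described from chromatin immunoprecipitation followed by sequencing (ChIP-seq). A region belonged to the set when its summit, the position of its highest signal, lay on X, outside every protein-coding gene body and outside the window from 1000 bp upstream to 200 bp downstream of every protein-coding start. The rule used position alone, and 976 of the 11281 candidate regions called on both replicates together met it, out of 2421 on X. The experiment had 1 group of 2 biological replicates, both from whole L2 larvae of strain OP418, genotype unc-119(tm4063) III; wgIs418, with males and hermaphrodites pooled and the age of the worms unknown. The labels name dmd-4 for the antibody. In this strain a stably expressed transgene carries DMD-4 with GFP and FLAG at its C terminus, and all worms of both replicates carry it together with the unc-119 mutation. Chromatin was sheared by sonication. The regions therefore average over all cells of the larva, and tagged and native DMD-4 cannot be told apart in them. No untagged strain or second condition was analysed here.

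DMD-4 is a DM-domain protein, a relative of insect Doublesex and of the worm protein MAB-3, whose family binds DNA through an intertwined zinc-containing domain and acts in sexual differentiation of many animals. Chromosome X is also the target of worm dosage compensation. In hermaphrodites, which have a pair of X chromosomes, a condensin-like complex binds both and lowers their transcription, while in males with a single X the gene xol-1 keeps the complex off. The complex is first recruited at scattered recruitment elements on X, which share a short sequence called the MEX motif. Its core letters are GCGCAGGG.

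That core was found within 100 bp of the summit in 10 of the 976 regions, and 7 of these 10 were among the strongest 12. The copies are shown because they recur among the strongest X intergenic regions. Sequence is from the RefSeq copy of WBcel235, which is the ce11 assembly of the files. Each line gives the gene with the nearest protein-coding start, the position and strand of the 8-letter core, and the sequence read 5′ to 3′ on that strand. Capitals mark the core, and the first 10 lines belong to regions that passed the authors' threshold.

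W02H3.3, chrX:11094125-11094132, - strand: tttatatcGCGCAGGGagcttatg
W02H3.3, chrX:11094226-11094233, - strand: aaccattcGCGCAGGGacacctca
F20B6.9, chrX:4209266-4209273, - strand: ccgctatcGCGCAGGGacacctct
F22H10.2, chrX:16682172-16682179, - strand: aaaacatcGCGCAGGGaacatcaa
xol-1, chrX:8036401-8036408, - strand: tttttatcGCGCAGGGacgtatgt
xol-1, chrX:8036435-8036442, + strand: tttccatcGCGCAGGGaacccttc
col-185, chrX:13514558-13514565, + strand: cctttatcGCGCAGGGatattgaa
gtr-1, chrX:806674-806681, + strand: cgattatcGCGCAGGGgtgtttgt
gtr-1, chrX:806750-806757, + strand: accgatacGCGCAGGGaaaaaaaa
T24D8.6, chrX:2364899-2364906, - strand: ataattaaGCGCAGGGatatatag
dpy-23, chrX:4395615-4395622, + strand: ggagacaaGCGCAGGGagaactgg
R11.3, chrX:16202519-16202526, - strand: aatcttttGCGCAGGGgtgcaagg
sedl-1, chrX:1437295-1437302, + strand: tggaaattGCGCAGGGaggctggg

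In the 10 copies from the 7 regions that passed, the base just before the core was C in 9, the base before that T in 8, and the base before that A in 7. The base just after the core was A in 9. The commonest letters together read atcGCGCAGGGa, a 12-letter extended core. It was read from these regions, so its presence in them is no finding. One base further out before the core, and over the next 3 bases after it, no letter was shared by more than 6 of the 10 copies. None of the 948 regions that did not pass held all 12 letters. Of these 948, 3 held the 8-letter core, and the 12 letters were read from the regions that passed, so this absence is no finding either. All 12 letters were also in 3 candidate regions of X gene bodies and 1 of X promoters.

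The whole windows of 4 of the strongest regions and of the region upstream of xol-1 show how the copies are placed. They run 100 bp to either side of the summit on the + strand, and capitals mark the core, which reads CCCTGCGC where it lies on the other strand. For the regions at ZK899.6 and F19H6.5, which have no core, capitals mark instead the best match to the extended core. Near matches in the other windows are not marked, among them atcgcgaaggga at F20B6.9 and tcccttcgc at W02H3.3.

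ZK899.6, chrX:9465793-9465993, + strand: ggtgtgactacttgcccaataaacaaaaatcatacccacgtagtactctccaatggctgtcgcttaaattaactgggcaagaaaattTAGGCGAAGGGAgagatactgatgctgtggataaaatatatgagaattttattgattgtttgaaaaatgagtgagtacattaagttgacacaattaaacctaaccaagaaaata
W02H3.3, chrX:11094083-11094283, + strand: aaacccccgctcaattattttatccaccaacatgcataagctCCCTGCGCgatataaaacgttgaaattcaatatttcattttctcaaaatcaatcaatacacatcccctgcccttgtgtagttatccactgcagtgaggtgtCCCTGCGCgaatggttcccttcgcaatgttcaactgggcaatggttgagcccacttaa
F19H6.5, chrX:12363049-12363249, + strand: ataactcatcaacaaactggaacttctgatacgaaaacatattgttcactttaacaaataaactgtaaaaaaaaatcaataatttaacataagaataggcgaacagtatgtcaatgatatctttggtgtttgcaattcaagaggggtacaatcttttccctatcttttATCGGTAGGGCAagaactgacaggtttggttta
F20B6.9, chrX:4209216-4209416, + strand: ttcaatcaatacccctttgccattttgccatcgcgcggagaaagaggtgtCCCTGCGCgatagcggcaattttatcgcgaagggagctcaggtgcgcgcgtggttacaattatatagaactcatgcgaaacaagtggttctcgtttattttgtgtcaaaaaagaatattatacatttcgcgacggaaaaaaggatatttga
xol-1, chrX:8036350-8036550, + strand: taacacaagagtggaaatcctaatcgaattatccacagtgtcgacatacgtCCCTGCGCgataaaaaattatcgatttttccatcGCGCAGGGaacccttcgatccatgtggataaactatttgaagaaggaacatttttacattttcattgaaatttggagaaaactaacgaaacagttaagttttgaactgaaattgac

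The region at W02H3.3 holds 2 copies in the same direction, and that upstream of xol-1 holds 2 in opposite directions. The best match at ZK899.6 differs from the extended core in 4 of 12 letters and that at F19H6.5 in 5 of 12, so these windows do not contain it although the regions rank 1 and 3 by signal.

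Signal in the set fell from a few very strong regions to a long weak tail. The signal is a value deposited by the authors for each region, whose scale is not stated, and it serves here to rank regions of the same list. It ran from 13.0 to 252 with a median of 17.0, beside a median of 16.6 over all candidate regions. The 14 strongest regions lay between 116 and 252, the next one at 93.2, and the middle part of the set between 14.7 and 20.9 (lower and upper quartile). X intergenic regions made up 8.67% of the 11254 nuclear candidate regions and 7 of the 10, 13 of the 25 and 19 of the 100 strongest nuclear ones. The share of members was thus higher at the top of the nuclear list than in the whole of it. The other 27 candidate regions lay on mitochondrial DNA.

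**Figure D1:**
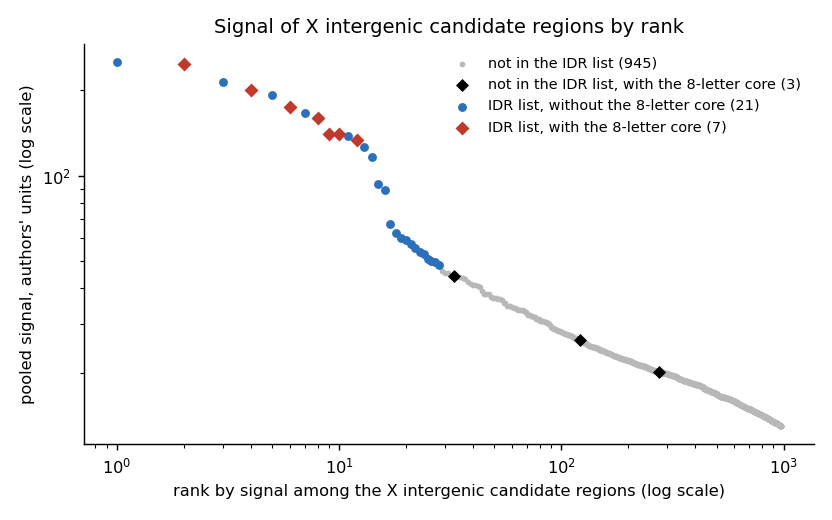
Pooled signal of each of the 976 X intergenic candidate regions (both axes logarithmic) against its rank by signal. Regions of the IDR list are red diamonds when they hold the 8-letter core and blue circles when they do not, and the 7 red diamonds all lie within the first 12 ranks.

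Of the 976 regions, 28 (2.87%) were also in the deposited list thresholded by irreproducible discovery rate (IDR), a measure of how well a rank repeats between replicates. Over all candidate regions 212 of 11281 (1.88%) were in it, of which 185 were nuclear (1.64% of the nuclear regions), and over all of X 46 of 2421 (1.9%). Within X the share was 6 of 836 (0.718%) for regions in gene bodies and 12 of 609 (1.97%) for promoter regions. Among autosomal regions it was 24 of 2330 (1.03%) between genes, 16 of 3499 (0.457%) in gene bodies and 99 of 3004 (3.30%) in promoters. X intergenic regions thus stood above the other classes between or inside genes in this share and below autosomal promoters, while its exact 95% interval, 1.91% to 4.12%, overlapped those of both promoter classes. Regions of 1 experiment are not replicates of a condition, so these shares are given without a test.

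**Figure D2:**
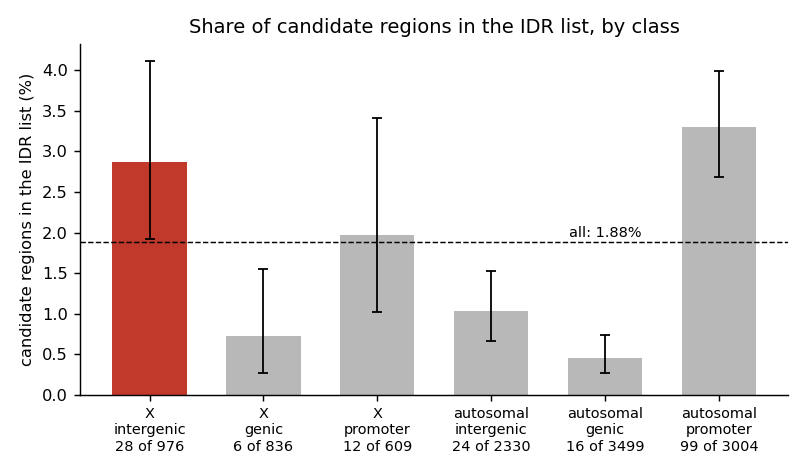
Share of candidate regions in the IDR list (%) for 6 classes, with exact 95% binomial intervals that cover the counting of regions only. X intergenic regions are in red at 2.87%, the dashed line is the 1.88% of all candidate regions, and the counts stand under the bars.

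Set against the length of sequence, X intergenic DNA by the same rule made up 32.3% of X, 5.72 Mb, and carried 40.3% of the candidate regions of X and 60.9% of its IDR regions. This is 171 candidate regions and 4.89 IDR regions per Mb. X gene bodies carried 103 and 0.738 per Mb, X promoter windows 157 and 3.10, and autosomal intergenic sequence 120.1 and 1.24. Per length, IDR regions were therefore about as dense in X intergenic DNA as in autosomal promoter windows, which carried 4.43 per Mb.

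Each of the 28 IDR regions was also called in both replicates. The IDR list is selected for repeating between these same replicates, so this is no separate finding. Of the strongest, the region at chrX:9465773-9465986 near ZK899.6 had a signal of 252 in the pooled list, 122.5 in replicate 1 and 130.3 in replicate 2. The region at chrX:11094019-11094342, between W04G3.11 and W02H3.3, which point towards each other, had 248 pooled, 116 in replicate 1 and 135 in replicate 2. That at chrX:12363065-12363232, in a gap of 555 bp between the ends of F19H6.6 and F19H6.5, had 214, 107 and 108. These 3 regions were picked by pooled signal, which is made from both replicates, so their high values in each are a description only.

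The fourth, at chrX:4209192-4209358, lay 1831 bp upstream of F20B6.9 and beside hpk-1, a homeodomain-interacting protein kinase, with 201 pooled, 116 in replicate 1 and 91.6 in replicate 2. The fifth, at chrX:13700640-13700989 between adm-2, an ADAM metalloprotease gene, and K02D3.1, had 193, 107 and 96.5. The sixth, at chrX:16681981-16682330 near F22H10.2, had 175.4, 83.7 and 100.03. The deposited value was higher in replicate 1 for the fourth and the fifth and in replicate 2 for the sixth. Whether the replicate lists share a scale is not stated, so a higher value in either cannot be read as stronger binding.

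The region nearest to fbxb-58, an F-box gene, at chrX:1626941-1627290, had 167 pooled, 99.9 in replicate 1 and 72.8 in replicate 2. The region at chrX:8036345-8036535 lay 4863 bp upstream of xol-1, the gene that reads the number of X chromosomes, with 160.1 pooled, 105 in replicate 1 and 62.3 in replicate 2. At chrX:13514406-13514755, between the collagen gene col-185 and the cyclin-dependent kinase gene cdk-4, the values were 141, 80.8 and 57.8. All 3 had the higher deposited value in replicate 1, with the same limit on scale.

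At gtr-1 (chrX:806496-806845) the pooled signal was 139.8, with 58.7 in replicate 1 and 80.2 in replicate 2. At T27A8.7 (chrX:16056433-16056782) it was 138, with 69.4 and 72.3. At T24D8.6 (chrX:2364756-2365105), in a gap of 844 bp beside lgc-40, a ligand-gated ion channel gene, it was 133, with 68.0 and 72.1. The regions at F55G7.5 (chrX:11937391-11937740), beside the Dot1-family gene dot-1.4, and at F56C3.1 (chrX:1389489-1389838) completed the 14 above 100, with 126 and 116 pooled. Replicate 1 gave 60.3 at F55G7.5 and 66.2 at F56C3.1, and replicate 2 gave 81.3 and 49.5.

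The other 14 IDR regions had signals from 48.1 to 93.2. The strongest of them lay near nhr-3, a nuclear receptor gene, at chrX:14562289-14562638, with 93.2 pooled, 46.1 in replicate 1 and 45.6 in replicate 2. The next lay near nspc-17 (chrX:14526030-14526379, 89.3 pooled), where the summit of replicate 1 was 172 bp away. Further down were regions near npr-4, a neuropeptide receptor gene (chrX:12536661-12537010, 62.6), near egrh-1, an EGR-type zinc finger gene (chrX:14841053-14841402, 60.4), and between R03E9.2 and mdl-1, a MAD-like bHLH gene (chrX:6736737-6737086, 52.7). The rest of the 25 strongest lay near ZK470.2 (67.3), F46G11.4 (59.0), F43E12.1 (57.15), F53B1.9 with the collagen gene dpy-3 on its other side (55.3), C30E1.4 (53.8) and F41E7.2 (50.8).

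At the edge of the list, the last 2 members inside were near daf-12, the steroid-hormone receptor gene of dauer and developmental timing, with 49.5, and a further one near egrh-1 with 48.1. The first outside were near hlh-29, a bHLH gene, with 45.9 and tmem-145 with 45.4. In the replicates the daf-12 region had 27.2 and 15.3 and the hlh-29 region 19.4 and 24.96, so the values on both sides of the edge overlapped within a replicate.

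Replicates ranked the IDR members alike and the weak members only loosely. Across the 28 IDR members the signals of replicate 1 and replicate 2 had a Pearson correlation of 0.88 on the log2 scale and a Spearman correlation of 0.84. Across the 395 other members that overlapped a region of each replicate these were 0.38 and 0.26. Of the 395, 33 share a replicate region with a stronger candidate region within 1 kb and so repeat its value, and without them the correlations were 0.26 and 0.22 over 362 members. The region near nspc-17 was the 1 IDR member with such a shared region. The points share 2 libraries, and the IDR members were selected for repeating, so the values are a description. By deposited value, replicate 2 was higher in 13 and replicate 1 in 15 of the 28, with log2 ratios from -1.04 to 0.45. These ratios depend on the scales of the replicate lists, which are not stated. The replicate summits lay a median of 7.5 bp (replicate 1) and 5 bp (replicate 2) from the pooled summit in IDR members, against 40 bp and 51 bp in the 395.

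**Figure D3:**
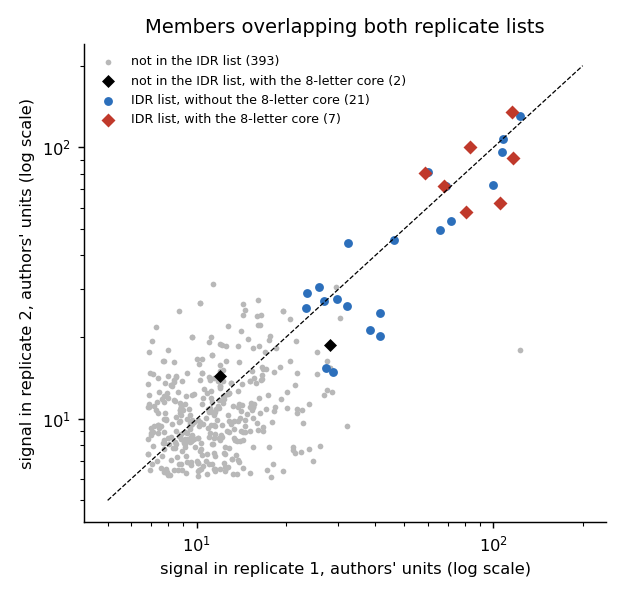
Signal in replicate 2 against signal in replicate 1 (both axes logarithmic) for the 423 X intergenic regions that overlap a region of both replicate lists, with the line of equality dashed. The 28 IDR members, red diamonds with the 8-letter core and blue circles without, follow the line, and the grey cloud of weaker members follows it loosely.

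Of all 976 members, 423 (43.3%) overlapped a candidate region of each replicate by at least 1 bp, beside 39.2% of all candidate regions. Replicate 1 alone overlapped 265, replicate 2 alone 240, and 48 overlapped neither. The share overlapping both fell with rank, from 28 of 28 IDR members to 65 of 72 at ranks 29 to 100, 129 of 200 at ranks 101 to 300 and 201 of 676 below that. The pooled signal that sets the rank and the IDR list both come from these replicates, so the fall is a description only. A weaker member overlapped 7 of the 28 IDR members. Beside the region at K02D3.1, with 193, it had 45.1 and overlapped the same replicate regions, so its replicate values repeat those of its neighbour. When overlapping members were merged, 933 were left.

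Around the strong regions the coding genes on either side most often ended towards the region or ran the same way. Of the 28 IDR members, 13 (46.4%) lay between convergent genes, whose ends face each other, 13 between tandem genes and 2 between divergent genes, whose starts face each other. Of the 948 others, 96 (10.1%) lay between convergent, 508 between tandem and 344 (36.3%) between divergent genes. The X intergenic sequence itself was 12.8% convergent, 53.6% tandem and 33.6% divergent by length. The weak members thus followed the sequence available, and the IDR members held a higher convergent and a lower divergent share than it. Among the 24 autosomal intergenic IDR regions 5 (20.8%) were convergent and 6 divergent, where sequence was 17.6% convergent. No test was made of these shares. The 2 divergent IDR members were those at mdl-1 and at F41E7.2.

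**Figure D4:**
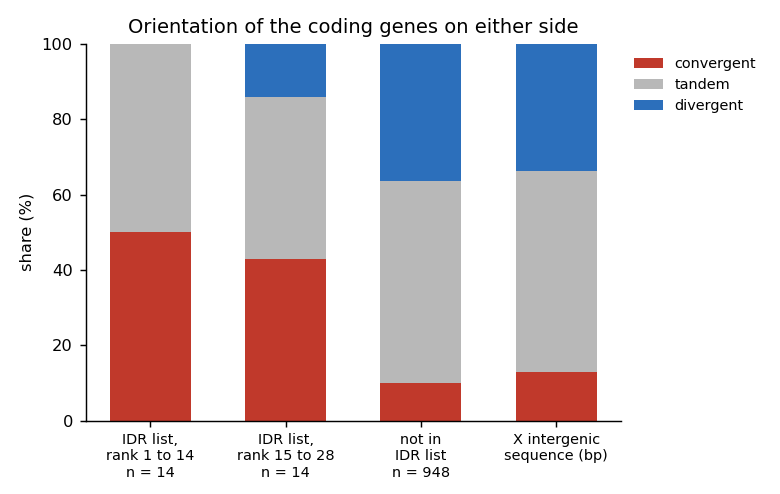
Orientation of the protein-coding genes on either side of X intergenic regions, as a share (%) of the 14 strongest IDR members, the 14 weaker ones, the 948 members outside the IDR list, and the X intergenic sequence by length. Convergent pairs make up 50% and 42.9% of the IDR groups, 10.1% of the other members and 12.8% of the sequence.

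Distance to genes varied widely. The nearest protein-coding start was 292 to 16450 bp away, with a median of 2759.5 bp and quartiles of 1802 and 4364.5 bp, and 800 members (82.0%) lay within 5 kb. The farthest was nearest to F57G12.1. In IDR members the median was 3309.5 bp. The gap between the coding genes on either side had a median of 6276 bp for IDR members and 8234.5 bp for all members. By median, the gap was thus not wider in the IDR members. The summit lay on the upstream side of its nearest start in 692 members and on the downstream side in 284, but in 12 and 16 of the IDR members.

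Intergenic here means outside protein-coding genes, and 60 summits lay in an annotated gene of another kind. These were 29 ncRNA, 16 pseudogene, 10 tRNA, 9 lincRNA and 1 snoRNA overlaps, with some summits in more than 1. No IDR member was among the 60. The strongest of them had a signal of 43.7, in M02F4.12, an ncRNA gene beside M02F4.2.

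Members were spread along the whole chromosome. In 3 equal parts from left to right, X held 284, 333 and 359 members and 8, 8 and 12 of the IDR members. Per Mb of intergenic sequence these were 146, 196 and 173 members. Over the 17 full 1-Mb intervals the count ran from 37 to 81 with a median of 53, and 2 intervals had no IDR member. Neighbouring IDR members were a median of 445 kb apart, with a largest gap of 1.78 Mb and 2 gaps under 5 kb.

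The shortest of those gaps was 905 bp, between the pair near egrh-1 with 60.4 and 48.1, which lies near dmd-4 itself (X, 14857303 to 14861852). Within 50 kb of dmd-4 there were 14 members, 2 of them in the IDR list, with signals from 13.2 to 60.4, and 9 overlapped both replicates. The member nearest to dmd-4 lay 84 bp beyond its end with 14.5 in the pooled list, 12.8 in replicate 1 and 12.4 in replicate 2. A stronger member that overlaps it, with 15.97, has the same replicate regions, and their summits, 297 and 223 bp from that of the nearest member, lie 12 and 62 bp from its own. The transgene carries a copy of dmd-4, and how much flanking sequence it carries is not stated. Signal from the transgene and from the native locus cannot be told apart in these values. Without these 14 members 962 were left and the share in the IDR list was 2.70%. The other short gap was between the W02H3.3 regions with 248 and 49.9.

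Of 15 genes for dosage compensation and for reading the number of X chromosomes that were looked up, 6 were found on X, and xol-1 was the nearest start of a member. Within 20 kb of xol-1 there were 4 members, among them the region with 160.1. The nearest to the gene body lay 4431 bp beyond its end, with 25.997 in the pooled list, 16.0 in replicate 1 and no overlapping region in replicate 2. sdc-2 encodes the protein that leads the complex to X, and its nearest member was 17655 bp away with a signal of 18.3 (9.61 and 8.73 in replicates 1 and 2). sdc-1, another subunit of the recruiting set, had one 141 bp beyond its end with 14.1, found in replicate 2 only (7.91). X signal elements are genes whose dose marks the number of X chromosomes. Among them, the nearest member to the nuclear receptor gene sex-1 lay 14774 bp away with 19.97 (7.77 and 9.98 in replicates 1 and 2). That of the RNA-binding protein gene fox-1 lay 4406 bp away with 16.1 and overlapped no region of either replicate. That of the homeobox gene ceh-39 lay 2370 bp away with 15.5 (12.9 and 9.84 in replicates 1 and 2). Apart from the region upstream of xol-1, these values lay in the range of the weak members, and none was in the IDR list.

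Other gene families were counted in the same way, beside the 2.87% of all members that were in the IDR list. Over all 2727 protein-coding genes on X, 621 were the nearest start of a member. Of 23 genes named nhr, a set of nuclear receptors that leaves out daf-12, 13 were, with 30 members of which 1, at nhr-3, was in the IDR list. Neuropeptide and insulin-like genes had 9 of 34 (highest signal 43.8, at nlp-3), homeobox genes named ceh had 6 of 18 (highest 24.1), and collagen genes named col had 2 of 27, col-181 and col-185. The genes with the most members were egrh-1, nhr-1, nhr-71, gpc-1 and npr-24, with 6 each. These counts are not scaled by the length of intergenic sequence, and overlapping members count separately. The gap between npr-24 and nhr-1 is 27227 bp and that beside egrh-1 7745 bp, where the median over all members is 8234.5 bp. Among these 5 genes, only egrh-1 had IDR members. Both lie within 50 kb of dmd-4, where signal from the transgene and from the native locus cannot be told apart.

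Sequence at the summit differed most between the IDR members and the tail. Within 100 bp of the summit, the median GC content was 37.3% in IDR members, 33.1% at ranks 29 to 100 and 29.4% at ranks 101 to 300 as well as below. Over all X intergenic regions it was 29.9%, over X promoter regions 31.3% and over X gene bodies 30.3%. Median GC content was therefore higher down to rank 100 and level below it, and its part in the ranking was not tested.

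Counted over either strand in the window of 100 bp around each summit, the 8-letter core GCGCAGGG occurred in 7 of 28 IDR members (25%) and in 3 of 948 others (0.316%), beside 22 of all 11281 candidate regions (0.195%). The 7 were the regions at W02H3.3, F20B6.9, F22H10.2, xol-1, col-185, gtr-1 and T24D8.6, with signals from 133 to 248. All were among the 14 IDR members above 100, and the 14 weaker IDR members had none. IDR members with the core had a median signal of 160.1 and those without it 62.6. Members with it and those without it overlapped in signal, since the strongest region, at ZK899.6, lacks the exact 8 letters. Its window does hold GCGAAGGG, a near match to the core. The motif was chosen with earlier results of these data known, so these contrasts are a description.

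The core was not limited to intergenic DNA. On X it was in 3 of 6 IDR regions of gene bodies and in 3 of 12 of promoters, so regions of every class on X held it. Of 139 autosomal IDR regions 1 held it, and of the 24 between genes 0. Among the 28 strongest X intergenic regions of replicate 1 alone 8 held the core, and 6 of those of replicate 2 alone. The pooled ranking is made from these same replicates, so the counts are not independent of it. Over the genome the core occurred 81 times on X (4.57 per Mb) and 233 times on the autosomes (2.82 per Mb). Of the X copies 21 lay in a candidate region and 16 in an IDR region, and of the autosomal copies 8 and 1. In X intergenic sequence 35 copies were found, 13 of them in members and 10 in IDR members, so most copies there had no candidate region.

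Within the 7 IDR members the 10 copies lay close to the summit. The median distance from summit to the centre of a copy was 36.5 bp, the largest 82 bp, and 8 of 10 were within 50 bp. W02H3.3, xol-1 and gtr-1 had 2 copies each. The 3 weaker members with a copy were near dpy-23, a clathrin adaptor gene (signal 44.0), R11.3 (26.2) and sedl-1 (20.2).

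**Figure D5:**
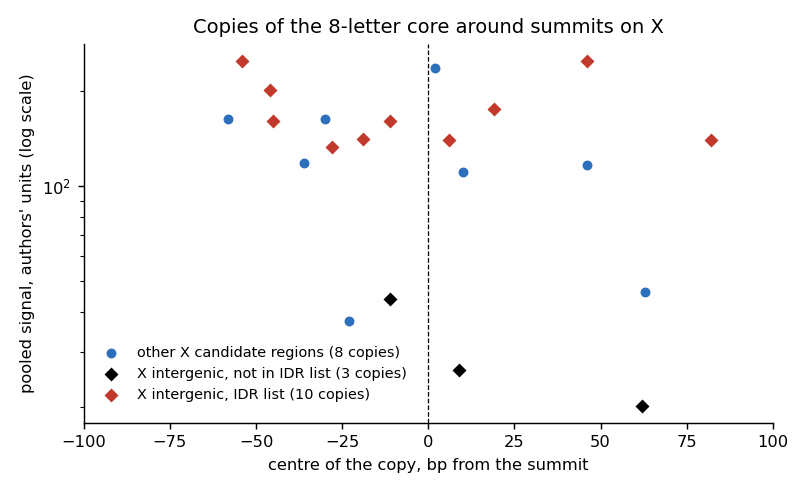
Distance of each copy of the 8-letter core from the summit (bp, along the + strand) against the pooled signal of its region (logarithmic), for copies within 100 bp of a summit on X. The 10 copies in X intergenic IDR members (red) lie at signals from 133 to 248, the 3 in other X intergenic regions (black) from 20.2 to 44.0, and the 8 in gene bodies and promoters of X (blue) from 37.4 to 235.2.

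A looser search used the 12-letter extended core with up to 2 mismatches. It was chosen after the sequences were seen, and it found 2 more IDR members among the 21 without the exact core, both above 100 in signal. They are shown with the matched 12 letters in capitals, the first with 1 mismatch and the second with 2.

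fbxb-58, chrX:1627103-1627114, + strand: ctcccATCGCGAAGGGAtactttc
T27A8.7, chrX:16056649-16056660, - strand: ggccaCTCGCGCAGGTAgccatcc

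The match at fbxb-58 lay 7 bp before the summit and that at T27A8.7 47 bp after it. In all, 8 of 28 IDR members, 8 of 948 other members (0.844%) and 45 of 11281 candidate regions (0.399%) had such a match, beside 4 of 2330 autosomal intergenic regions (0.172%). Among the other IDR regions, it was in 3 of 6 in X gene bodies, 2 of 12 in X promoters and 5 of 139 on autosomes (3.6%). A match is a description of the sequence, and no data on dosage compensation proteins were used here.

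Sequences known from sites of DM-domain proteins were counted in the same way. In the same windows ACAATGT, a core of such sites that reads ACATTGT on the other strand, was in 2 of 28 IDR members, 37 of 948 others (3.90%) and 3.35% of all candidate regions. TGTTGC, the core of the MAB-3 site, was in 3 of 28, in 85 of 948 (8.97%) and in 7.77%. The parts CGCAGGG and GCAGGGA of the longer core, which overlap it, were each in 9 of 28 IDR members, and in 4 and 5 of 948 others. Over all candidate regions they were in 0.381% and 0.700%. CTTGCGC was in 0 of 28 and in 8 of 948 (0.844%), beside 0.878% of all candidate regions and 20 of the 139 autosomal IDR regions (14.4%). The GATA factor site AGATAA was in 2 of 28 and 13.1% of the others, beside 13.2% of all candidate regions. GAGAGAG was in 2 of 28 and 1.69% of the others, beside 3.36% of all candidate regions, and TGGGTGG, the core of the TRA-1 site, in 1 of 28 and 1.16%, beside 0.984%. The absence of these letters says only that they are not in these windows.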

How the data were processed

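The deposited files are lists of regions from the submitters' processing. Per the deposited descriptions, each list derives from the alignment of a single replicate or of both, with a control alignment, in ce10 and ce11, and the IDR list from the candidate lists. The sources used here do not give the aligner, caller, versions, IDR threshold or kind of control. Each region's signal was deposited by the authors without a stated scale. The deposited −log10 q-value has a single value throughout the IDR list and was left out. Summit offsets are the authors' values in bp. Depth is unknown, as no reads were used, and intervals cover the counting of regions only.

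Starts, gene bodies and biotypes came from Ensembl release 115 (WBcel235, the same sequence as ce11). The replicate signal of a region is the highest among overlapping regions of that replicate (at least 1 bp). Coordinates are 1-based. The ce10 lists gave counts on X only, 2323 candidate and 47 IDR regions beside 2421 and 46 in ce11. Python 3.11.15, numpy 2.4.6, pandas 2.3.3, scipy 1.17.1 and matplotlib 3.10.9 were used, and the functions for classes and overlaps were tested on simulated data.

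The regions, motifs and gene lists were chosen with earlier results of these data known. Regions named with values were the 25 members with the highest signal, those holding the MEX core, those at the edge of the IDR list, and those within 20 kb of dosage compensation and DM-domain genes, each named by its nearest protein-coding start. Genes and regions named for a maximum, such as M02F4.12, nlp-3, F57G12.1 and those with the most members, were chosen after their values were seen. Regions of 1 experiment are not replicates, so no test was made. Replicates are those the labels number. Alternatives were other promoter windows, gene bodies of all biotypes, whole intervals, merged regions, each replicate alone, other overlap criteria and other sequence windows.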

Additional observations from a re-analysis of the deposited data

How the results depend on the processing

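The number of members was 740 with a wider promoter window (2000 bp before a start to 500 bp after it), 1163 with a narrower one (500 bp before to 100 bp after), 916 with gene bodies of every biotype kept out and 858 with whole intervals placed, with 25, 33, 28 and 23 of them in the IDR list. The lists of replicate 1 and replicate 2 alone gave 1370 and 1450 members. The median distance to a start moved with the rule, to 3421.5, 2354, 2744 and 2974 bp in the same order of settings, and to 2700 and 2687 bp in replicate 1 and replicate 2 alone. Members overlapping both replicates had a median signal of 20.1. The stronger 106 IDR regions held 1.74% of the members, and the 212 strongest regions of replicate 1 and of replicate 2 overlapped 3.69% and 3.59%. GC content within 250 bp of the summit had a median of 30.7%. With a fraction of at least 0.5 of a member covered, 331 overlapped both replicates. The share with the 8-letter core stayed between 0.730% and 1.64% over all alternatives, the highest with the extended core, which was added after seeing the data, as was leaving out the surroundings of dmd-4. In a window of 50 bp to either side 7 of 28 IDR members held the core, and in one of 250 bp 8 of 28. Of 79 alternative values 57 stayed within their counting error, the spread between replicates or 1.5 times the count, and 22 did not, 13 of these being shares of other short sequences that change with the width of the window. Leaving out members that share a replicate region with a stronger one, also added after seeing the data, lowered the replicate correlation of members outside the IDR list from 0.38 to 0.26. No paired analysis was possible because the experiment has 1 group.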
